A study of Danio rerio with 2 samples.

Results

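The annexins are a family of membrane-binding proteins, and their transcripts were compared between the heads of wildtype and rbm24a mutant zebrafish embryos. The 10 names anxa1a, anxa1b, anxa1c, anxa2a, anxa2b, anxa3b, anxa4, anxa5b, anxa6 and anxa11a were looked up among 51544 features, ignoring case, and a family name without its copy letter counted for both copies. This gave 12 genes of the 17 annexin genes in the table, because the names ANXA3 and ANXA11 also brought in anxa3a and another ANXA11 gene. The genes were chosen on their mutant and wildtype CPM in this same comparison, as values of it were known when the family was proposed, so the differences below are a description and none of them is tested. The wildtype group was 1 library from AB strain embryos. The rbm24a-/- group was 1 library from AB embryos with a TALEN deletion of 8 bp in the first exon of rbm24a, which encodes an RNA-binding protein. All embryos were 33 hours post fertilisation (hpf), with heads cut in front of the otic vesicle; the labels do not say how many embryos went into a library or whether the groups were siblings. The labels' protocol mentions 3 independent samples, while 1 library per group was used here.

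Annexins bind negatively charged phospholipids when calcium rises, through a conserved core of repeats. The part in front of the core differs from member to member and sets their partners, such as S100 proteins. In mammals the family takes part in membrane repair, vesicle traffic and the calming of inflammation, and many members are abundant in epithelia, including skin.

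The wildtype library held 14148577 assigned reads and the mutant library 16667612. With 1 library a group there is no measure of variation between samples, and the 95% exact intervals printed here cover counting error only. rbm24a itself had 224 wildtype and 121 mutant reads, or 15.8 and 7.26 CPM, which are read counts scaled to the same library total. It was 2.18-fold lower in mutant heads (interval 1.74 to 2.74), with a log2 ratio of -1.03, called lower by the rule below. Of 2 entries with this name, the one closest in gene span to rbm24a in RefSeq was taken. A small deletion need not remove the transcript. A feature with a mean CPM of 1 or more was called measured. It was called higher or lower when log2((mutant CPM + 1)/(wildtype CPM + 1)) was at least 1 or at most -1. Of 18094 measured features, 2.22% were higher and 2.82% lower in mutant heads, or 5.05% in either direction, and the median log2 ratio was -0.00. The middle 90% of features lay between -0.75 and 0.68.

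Of the 12 annexins, 11 were measured, 2 were higher, 0 were lower and 9 lay within 2-fold, beside the background of 2.22% higher, 2.82% lower and 5.05% in either direction. The higher ones were anxa3a and anxa1a. Of the 11, 10 had a log2 ratio above 0 and 1, anxa4, below it. Over all features 49.8% lay above 0. Among the 10, anxa6, at 0.848 wildtype and 1.26 mutant CPM, reached a mean of 1 CPM through the mutant library alone. The filter thus fixed its side of 0. The median of the 11 was 0.27. No weight is put on these counts, since the genes were chosen with this comparison in view. In whole heads, more cells of a type and more RNA per cell cannot be told apart.

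Levels were compared between annexins as deposited RPKM, which scale reads by transcript length and library size, because a longer transcript collects more reads. anxa1c led in both libraries, with 124 RPKM in the wildtype (interval 121 to 128) and 145 in the mutant library (141 to 148). In the wildtype library anxa4 came second at 42.98 RPKM. Behind it stood anxa2a at 33.1, anxa1a at 33.0 and anxa5b at 31.5 RPKM, and the intervals of neighbours among these 3 overlapped. A middle group ran from anxa1d at 14 down to the ANXA11 gene ENSDARG00000002632 at 6.67 RPKM, with anxa3b, anxa13, anxa11a and anxa1b between them. anxa13l had 2.60 RPKM and anxa3a 1.69, with overlapping intervals. anxa6, anxa14, anxa5a and anxa2b were at 0.28, 0.21, 0.12 and 0.03 RPKM, where neighbouring intervals overlapped and the order is not resolved.

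In the mutant library anxa1c, anxa2a and anxa2b kept places 1, 3 and 17, and the other annexins changed place. anxa1a moved from place 4 to place 2, at 77.5 RPKM, and anxa3a from place 13 to place 6, at 20.6 RPKM. anxa4 moved from place 2 to place 5, at 28.8 RPKM, and anxa13 from place 8 to place 11, at 9.64 RPKM. anxa2a and anxa5b, now at places 3 and 4, had 36.1 and 34.0 RPKM with overlapping intervals. The interval of anxa3a overlapped that of anxa1d at place 7, which had 17.1 RPKM, so their order is not resolved. The intervals of neighbours from anxa3b at place 8 to the ANXA11 gene ENSDARG00000002632 at place 12 also overlapped, so the order of neighbours is not resolved. The interval of anxa3b did lie above those of anxa11a, anxa13 and that ANXA11 gene.

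**Figure D1:**
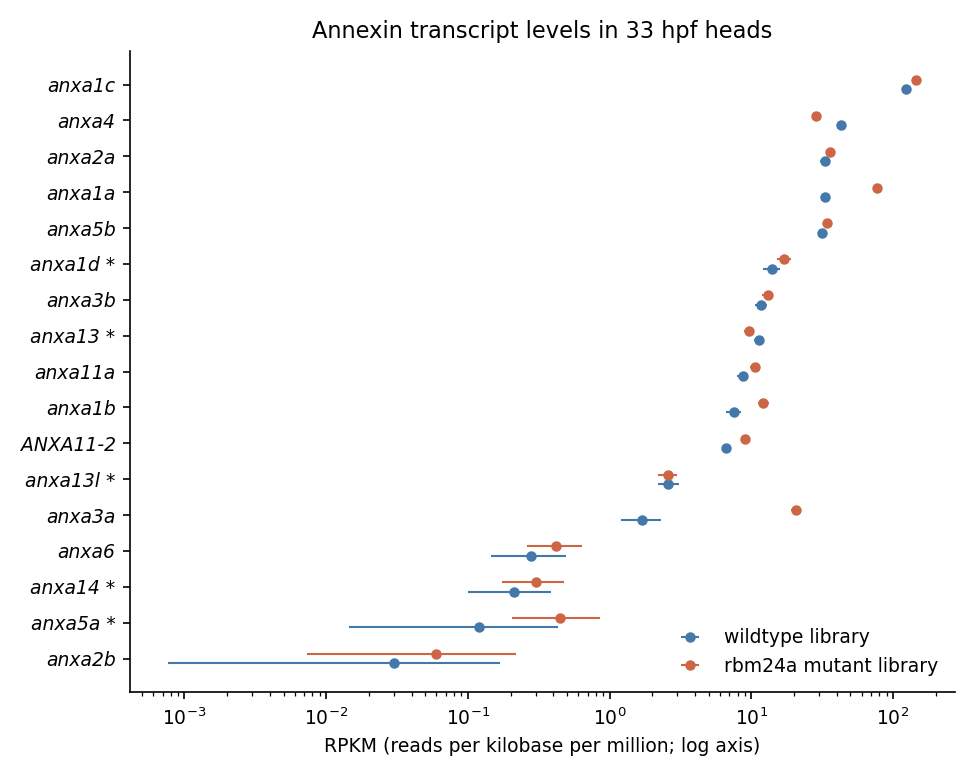
Level of each annexin gene in the wildtype (blue) and rbm24a mutant (orange) library, as RPKM on a log axis; bars are 95% exact intervals for counting error, and an asterisk marks annexins outside the 12. anxa1c leads in both libraries, and anxa3a shows the widest gap on the log axis, and thus the largest ratio, 1.69 against 20.6 RPKM.

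The annexin 1 genes gave most of the annexin reads. In mammals annexin A1 is induced by glucocorticoids and dampens inflammation, partly through formyl peptide receptors, and zebrafish carry several copies. anxa1a (ENSDARG00000026726) was covered by 1296 wildtype and 3585 mutant reads, or 91.6 and 215 CPM. It was 2.35-fold higher in mutant heads (interval 2.20 to 2.50), with a log2 ratio of 1.22, which put it at rank 248 from the top of the 18094 features. This gene alone made up 47.6% of the summed CPM increases of the 12 annexins.

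The other annexin 1 copies lay within 2-fold. anxa1c (ENSDARG00000104359), the most abundant annexin, had 4521 and 6197 reads, or 320 wildtype and 372 mutant CPM. Its ratio was 1.16-fold (interval 1.12 to 1.21), well short of the interval of anxa1a. anxa1b (ENSDARG00000100095) had 261 and 495 reads, or 18.4 and 29.7 CPM. Its ratio of 1.61-fold (interval 1.38 to 1.88) overlapped the interval of neither anxa1a nor anxa1c. anxa1d, which is outside the 12, had 203 and 292 reads, a ratio of 1.22-fold (interval 1.02 to 1.47). All 4 copies were thus on the same side of 1, by unequal amounts. Summed, they came to 444 wildtype and 634 mutant CPM.

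The anxa1d, anxa1c and anxa1b genes follow one another on chromosome 5 in the RefSeq annotation of assembly GRCz12tu, with anxa1a elsewhere on that chromosome. The deposited table gives anxa1c a span of 24037 bp against 11973 bp in RefSeq, so its model here is the longer one. For anxa1d the span is 7351 bp against 13061 bp in RefSeq, so its model here is the shorter one. Whether anxa1c overlaps a neighbour in the build used by the authors was not tested. Reads of near-identical stretches or overlapping genes may be split between copies, which makes single values within this group uncertain.

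The annexin 3 copies differed from each other. Annexin A3 is best known in mammals from neutrophil granules. anxa3a is the gene the names table lists as ANXA3 (ENSDARG00000009196); its span of 8260 bp compares with 8263 bp for anxa3a in RefSeq. It was covered by 38 wildtype and 545 mutant reads, or 2.69 and 32.7 CPM. This was 12.2-fold higher (interval 8.76 to 17.4), a log2 ratio of 3.19 and rank 10 from the top of all measured features. anxa3b (ENSDARG00000044254), on chromosome 10, had 415 and 545 reads, or 29.3 and 32.7 CPM. Its ratio was 1.11-fold (interval 0.979 to 1.27), an interval that includes 1. The wildtype library thus held far fewer anxa3a than anxa3b reads, while the mutant library held equal numbers. Per kilobase, anxa3a stood above anxa3b in the mutant library, at 20.6 against 13.04 RPKM, and below it in the wildtype library, at 1.69 against 11.7 RPKM.

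**Figure D2:**
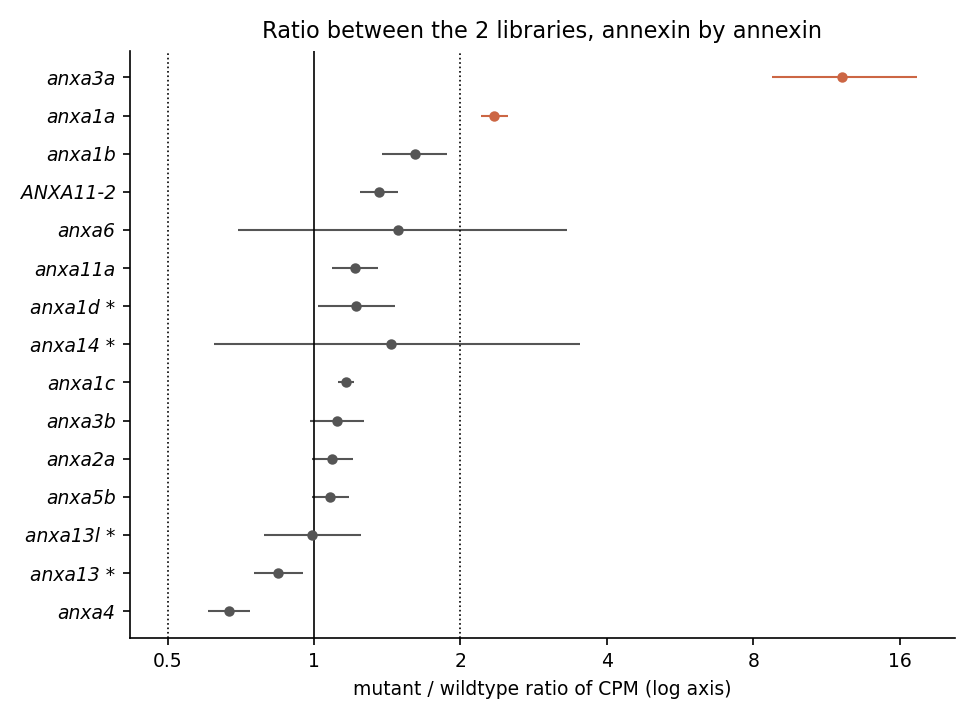
Ratio of mutant to wildtype CPM for each annexin gene with at least 20 reads in all, on a log axis, with 95% exact intervals for counting error; dotted lines mark 2-fold, and orange marks genes called higher. anxa3a (12.2) and anxa1a (2.35) lie past the upper line and anxa4 (0.670) lies lowest.

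The annexins 2 and 5 hardly differed. Annexin A2 binds S100A10 and links membranes to actin in mammals. anxa2a (ENSDARG00000003216) had 767 wildtype and 986 mutant reads, or 54.2 and 59.2 CPM, a ratio of 1.09-fold (interval 0.992 to 1.20). Its copy anxa2b was close to undetected, with 1 wildtype and 2 mutant reads, both under the 3 reads taken as a floor, so no ratio is given. anxa5b (ENSDARG00000016470) encodes a homolog of annexin A5, which is used in the laboratory to stain phosphatidylserine on dying cells. It had 925 and 1178 reads, or 65.4 and 70.7 CPM, a ratio of 1.08-fold (interval 0.991 to 1.18). For anxa2a and anxa5b the counting intervals include 1 and leave room for a difference of at most 1.20-fold and 1.18-fold upward in these libraries.

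Both annexin 11 genes lay within 2-fold. Annexin A11 has a long disordered front part, and in mammalian neurons it ties RNA granules to lysosomes. anxa11a (ENSDARG00000077383, span 46913 bp against 46708 bp in RefSeq) had 550 and 787 reads, or 38.9 and 47.2 CPM, a ratio of 1.21-fold (interval 1.09 to 1.36). The other ANXA11 gene (ENSDARG00000002632), whose copy letter the names table does not give, had 791 and 1269 reads, or 55.9 and 76.1 CPM. Its ratio was 1.36-fold (interval 1.25 to 1.49), a log2 ratio of 0.44, inside the range of the middle 90% of features. Annexin A6 carries the repeat core in duplicate. anxa6 (ENSDARG00000013335) was barely measured, with 12 and 21 reads, or 0.848 and 1.26 CPM, and its ratio of 1.49-fold has an interval of 0.698 to 3.31. That interval includes 1, so a difference in anxa6 within it could not be resolved at this depth.

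anxa4 (ENSDARG00000036456) was the member with less transcript in the mutant library. Annexin A4 is an epithelial annexin in mammals. It was covered by 903 wildtype and 713 mutant reads, or 63.8 and 42.8 CPM. This was 1.49-fold lower (interval 1.35 to 1.65), a log2 ratio of -0.57 that did not reach the 2-fold threshold. Of all measured features 8.28% had a lower log2 ratio, so such a value is not rare in this comparison.

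The 5 annexin genes outside the 12 gave no call. Of these, 3 were measured and all 3 lay within 2-fold. anxa13 (ENSDARG00000013976), whose mammalian counterpart is best known from gut epithelium, had 588 and 585 reads, 1.18-fold lower by CPM (interval 1.05 to 1.33). anxa13l had 142 and 166 reads, a ratio of 0.992-fold (interval 0.788 to 1.25), and anxa1d is given above. anxa14 had 10 and 17 reads and anxa5a 2 and 9 reads, both below 1 CPM on average. Summed, the 5 came to 66.8 wildtype and 64.1 mutant CPM (ratio 0.960, interval 0.879 to 1.05). The 12 summed to 741 and 979 CPM, a ratio of 1.32-fold (interval 1.29 to 1.36). Without anxa1a and anxa3a, the remaining 10 summed to 646 and 732 CPM, a ratio of 1.13-fold (interval 1.101 to 1.16). Among these 10, anxa1c had the largest gain, at 52.3 CPM, and anxa4 lost 21.0 CPM. The 12 were chosen with this comparison in view, so no weight is put on the contrast of these sums.

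**Figure D3:**
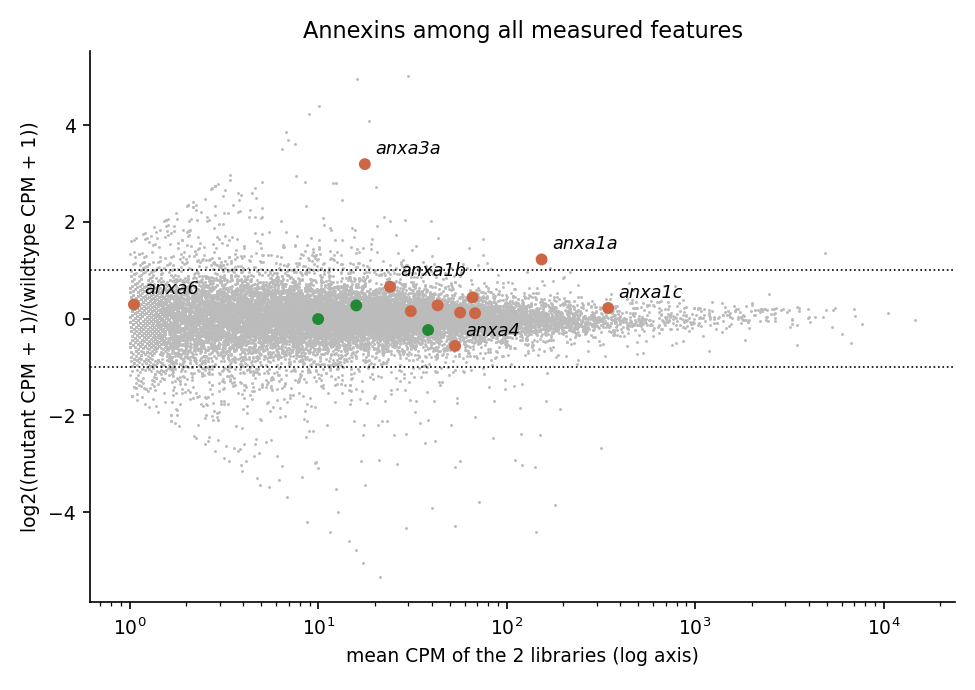
Mean CPM (log axis) against the log2 ratio of mutant over wildtype for all 18094 measured features (grey), the 11 measured annexins of the 12 (orange) and the other 3 measured annexins (green); dotted lines mark 2-fold. anxa3a at 3.19 and anxa1a at 1.22 stand above the upper line, and the other annexins lie inside both lines.

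The make-up of the annexin reads shifted with these genes. anxa1a held 11.3% of all annexin reads in the wildtype library (exact interval 10.8% to 11.9%) and 20.6% in the mutant library (20.01% to 21.2%). anxa3a held 0.333% and 3.13%. anxa1c held the largest share in both, 39.6% and 35.6%, a smaller share in the mutant library although its CPM was larger there. anxa4 held 7.90% and 4.10%. A share falls when other members gain, so these values describe the mixture and not single genes.

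**Figure D4:**
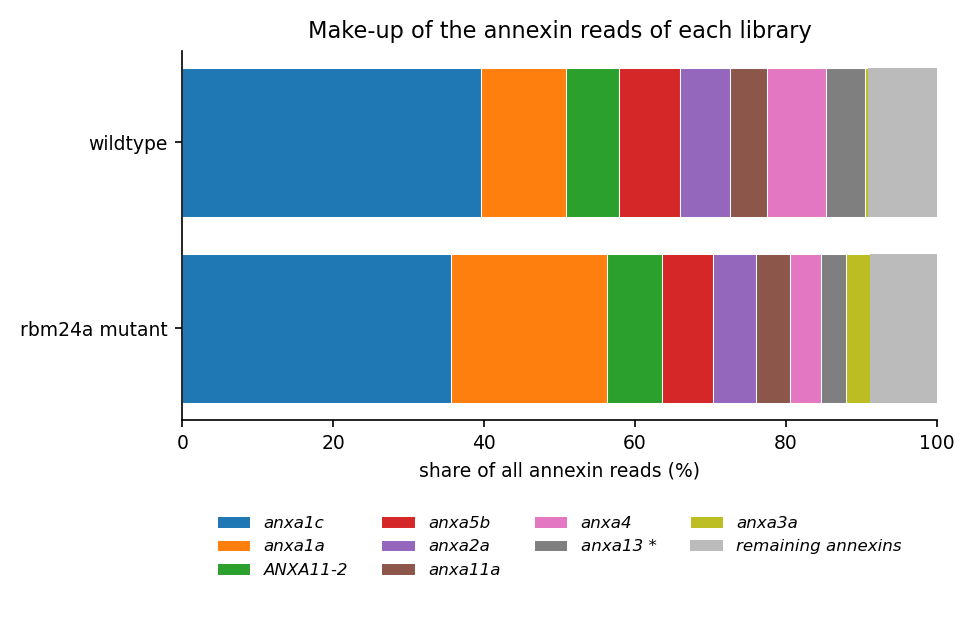
Share of all annexin reads (in percent) in the wildtype and the rbm24a mutant library. The genes with the most mutant reads are drawn singly, and the remaining annexins are merged into a grey segment. An asterisk marks an annexin outside the 12. The anxa1a segment widens from 11.3% to 20.6% and the anxa4 segment narrows from 7.90% to 4.10%.

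The authors' own comparison is also deposited. The authors' deposited table holds 37 genes, 4 of them higher in mutant heads, and 1 of these is an annexin. In the authors' deposited table anxa1a has 33.0 FPKM in the wildtype and 77.5 FPKM in the mutant library and is 2.402-fold higher in mutant heads. The other higher genes in the authors' deposited table are AC024175.4 (2.63-fold), dbi (2.11-fold) and hmgn3 (2.01-fold). anxa3a is not listed there. The lowest wildtype level in the authors' deposited table is 21.6 FPKM, and 5 annexins reached that level (anxa1c, anxa4, anxa2a, anxa1a and anxa5b), while anxa3a at 1.69 RPKM did not. Of the 37 genes, 33 are lower in mutant heads, and the lowest wildtype level among the 37 is not known to be a cutoff. Why anxa3a is not listed was not tested.

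The genes beside anxa3a and anxa1a were compared, since neighbours on a chromosome can differ together between fish. Of the 5 protein-coding genes on each side of anxa3a in RefSeq, 4 were matched and measured, and none of the 4 was past 2-fold. fras1 and bmp2k, next to anxa3a on either side, had log2 ratios of 0.08 and 0.25, and the 4 ranged from -0.07 to 0.25. Beside anxa1a, 3 neighbours were measured. mfsd3 had a log2 ratio of 0.33 and cyp1d1 0.28, and rorb, a nuclear receptor gene of the retina and brain, was lower, with 354 wildtype and 199 mutant reads (log2 ratio -1.01). Around the anxa1d to anxa1b run, ptgs1 had the largest ratio, with 48 and 128 reads (2.26-fold higher, interval 1.61 to 3.22; log2 ratio 0.98). Of 677 measured genes placed on chromosome 5, which holds anxa1a, anxa1b, anxa1c, anxa1d and anxa3a, 0.739% were higher, against 1.44% of 10742 on other chromosomes. Neither anxa1a nor anxa3a is counted in these shares, because the table names them without a copy letter.

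Lists of genes around annexin function were compared with the same rule. Over all features 5.05% were past 2-fold in either direction, so a count of 0 in a short list is near that share. The S100 proteins are small calcium sensors that clamp annexins together. Of 12 measured S100 genes 0 were higher and 0 lower, with a median log2 ratio of -0.01 and 6 on each side of 0. s100a10b, the partner of annexin 2, had 2883 and 3679 reads, or 204 and 221 CPM (1.08-fold, interval 1.03 to 1.138). Its copy s100a10a had no read in either library, which, with 3 counts as the limit for a count of 0, allows up to 0.212 wildtype and 0.180 mutant CPM. s100a11, whose mammalian counterpart binds annexin A1, had 7 and 32 reads (3.88-fold higher, interval 1.68 to 10.4). Its log2 ratio with the pseudocount was 0.97, just under the threshold, and it reached a mean of 1 CPM through the mutant library alone. s100z had 198 and 136 reads (log2 ratio -0.71), and s100w and s100b had log2 ratios of 0.48 and 0.46. Annexin 2 with its partner can hold plasminogen at the cell surface. Of 3 measured genes of that plasmin system 0 were past 2-fold in either direction and the median was -0.12. plata, a plasminogen activator gene, had a log2 ratio of -0.54, and serpine2, a protease inhibitor gene, -0.12.

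Annexin A1 was first described in mammals as an inhibitor of phospholipase A2, the enzyme that releases arachidonic acid for prostaglandin synthesis. The list of formyl peptide receptors, phospholipases, cyclooxygenases and lipoxygenases had 9 measured genes, of which 1 was higher and 0 lower, beside 2.22% and 2.82% of all features. A single gene is not read as a result for the list. Its median log2 ratio was 0.46, with 8 genes above 0 and 1 below. The higher gene was a PTGS2 gene (ENSDARG00000004539), a cyclooxygenase, with 239 wildtype and 631 mutant reads, or 16.9 and 37.9 CPM. It was 2.24-fold higher (interval 1.93 to 2.61), a log2 ratio of 1.12, and 0.69 was the value for the other PTGS2 gene (ENSDARG00000010276). ptgs1, the remaining cyclooxygenase, had 3.39 and 7.68 CPM and a log2 ratio of 0.98. A PLA2G4A gene (ENSDARG00000024546) of cytosolic phospholipase A2 had a log2 ratio of 0.58. fpr1, a formyl peptide receptor gene, had 11 reads in each library and was below 1 CPM.

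Of 24 measured membrane repair genes, 0 were past 2-fold in either direction, beside 5.05% of all features. In a list of this size that count is near that share. The median was 0.17, with 16 genes above 0. The largest absolute log2 ratios were those of a CAVIN1 gene of caveolae (0.71), the ferlin gene OTOF (-0.68), chmp4c of the ESCRT membrane scission machinery (0.53) and a CAPN1 calpain gene (ENSDARG00000055338, -0.51). Genes of calcium sensors with a C2 domain, another calcium-dependent way to bind phospholipids, had 22 measured members, 0 past 2-fold in either direction, and a median of -0.18 with 16 below 0. There esyt3, a tether between membranes, had a log2 ratio of 0.95, and SYT11 (ENSDARG00000056105), esyt1a and CPNE5 had -0.59, -0.55 and -0.54. Without the pseudocount esyt3 was 2.18-fold higher (interval 1.57 to 3.05) and CPNE5 2.14-fold lower (interval 0.978 to 4.95). CPNE5, at 1.41 wildtype and 0.660 mutant CPM, reached a mean of 1 CPM through the wildtype library alone.

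**Figure D5:**
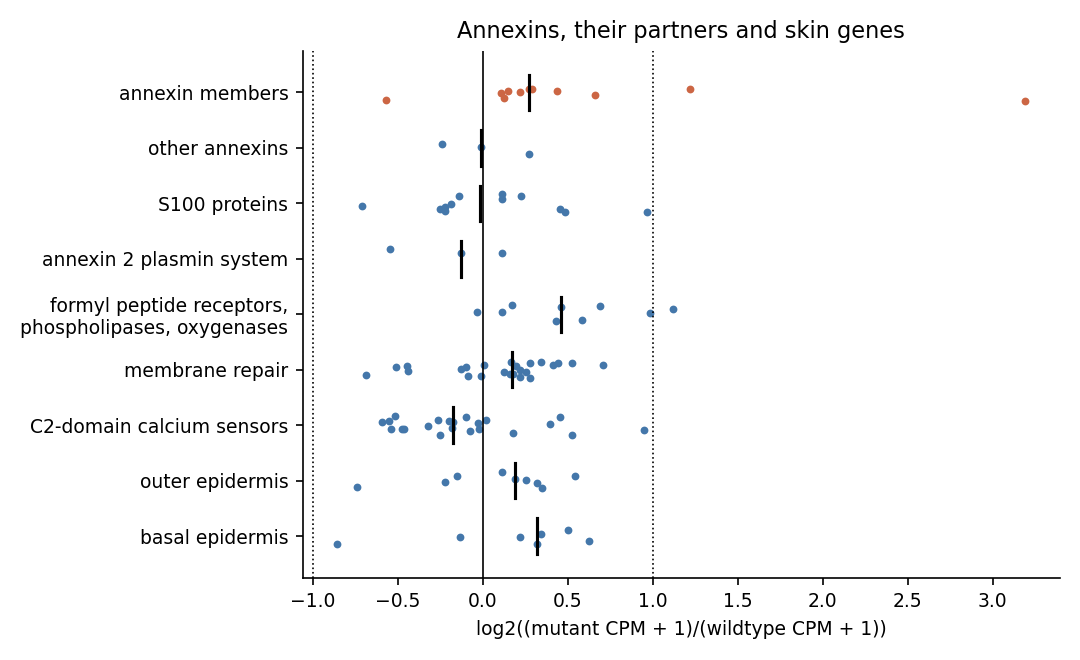
Log2 ratio of mutant over wildtype for each measured gene (points, spread vertically for view) and the median (black line) of the 12 annexins (orange), the annexins outside the 12, and the lists of partners and skin genes (blue); dotted lines mark 2-fold. Apart from anxa3a and anxa1a, the point past the upper line is a PTGS2 gene at 1.12.

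Skin is a tissue rich in annexins, and its markers were set beside them. Of 9 measured outer epidermis (periderm) genes 0 were past 2-fold in either direction, beside 5.05% of all features. In lists as short as those of this paragraph a count of 0 is near that share. The outer epidermis median was 0.19, and the list summed to 13274 wildtype and 14416 mutant CPM. cldni, a claudin gene of tight junctions, had a log2 ratio of 0.54, the keratin genes krt5 and cyt1l 0.35 and 0.32, and cyt1, also a keratin gene, -0.74. krt4 gave most of the sum, with 10187 and 11010 CPM, a ratio of 1.08-fold. Of 7 basal epidermis genes 0 were past 2-fold in either direction and the median was 0.32, with sums of 159 and 183 CPM. TP63, the regulator of basal skin cells, had a log2 ratio of 0.63, lamb4 0.50, col17a1b 0.34 and col17a1a -0.85. All 3 measured ionocyte list genes lay above 0 and within 2-fold, and the list had sums of 105 and 113 CPM. The largest value was 0.52 for ca2, a carbonic anhydrase gene. The others were ATP6V1A genes, at 0.06 and 0.05, which gave most of both sums. TRPV6, with 4 and 20 reads, and foxi3a, with 9 and 12, were below 1 CPM on average. Hatching gland genes had sums of 11.7 and 10.199 CPM, with 0 of 3 past 2-fold (klf17 -0.25, he1.1 -0.18, ctslb 0.16).

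Markers of other cell types differed between the libraries for lens, red cells, heart and part of the muscle list, and their part in the annexin values was not tested. All 6 lens fibre genes were lower, beside 2.82% of all features, with sums of 364 and 46.9 CPM. The largest differences were those of MIP (ENSDARG00000013963) and BFSP1 at log2 ratios of -3.80 and -2.94, BFSP2 at -2.85 and the second MIP gene (ENSDARG00000037285) at -2.48. All 5 measured red cell genes were lower, beside the same share of all features, with sums of 709 and 104 CPM (hbae1.1 -4.01, SLC4A1 -2.94, hbae3 -2.68, alas2 -2.21). BFSP2, hbae1.1 and gata1a (39 and 5 reads) were below 1 CPM in the mutant library and passed the filter through the wildtype library alone. For gata1a the filter then fixed the call, so its place in the count of red cell genes shows nothing further. Of 7 heart genes 2 were measured and both were higher, beside 2.22% of all features. HAND2 had 7 wildtype and 119 mutant reads, and MYL7 had 0 and 51. Both reached a mean of 1 CPM through the mutant library alone, as did pvalb2 and the second ACTA1 gene below. For MYL7 and pvalb2 the filter then fixed the call, so their places in the counts of these lists show nothing further. For HAND2 the filter fixed the side of 0 but not the call, and its log2 ratio was 2.45. The heart list summed to 0.989 and 13.7 CPM. The sums were 9.82 and 13.6 CPM for skeletal muscle, where 2 of 5 measured genes were higher and 0 lower, beside 2.22% and 2.82% of all features. These were pvalb2 at 2 and 50 reads and an ACTA1 gene (ENSDARG00000036371) at 22 and 75, the latter above 1 CPM in both libraries. A second ACTA1 gene had a log2 ratio of 0.81 (3.27-fold higher without the pseudocount, interval 1.39 to 8.91). MYOD1 stood at -0.59 and TNNT3 (ENSDARG00000068457) at -0.43. Macrophage and neutrophil genes, which matter here because mammalian annexins A1 and A3 are abundant in such cells, had sums of 59.9 and 46.0 CPM. Of 4 measured, 0 were past 2-fold in either direction, beside 5.05% of all features, which in a list of this size is near that share. MFAP4 (ENSDARG00000088745) stood at 0.82, lyz at -0.76, SPI1 at -0.15 and CORO1A at -0.03. Without the pseudocount MFAP4 was 2.06-fold higher (interval 1.39 to 3.08). Liver and gut genes had sums of 3.39 and 3.90 CPM, with FABP2 at -0.06 and apoa1b at 0.24. apoa1b, at 0.919 wildtype and 1.26 mutant CPM, reached a mean of 1 CPM through the mutant library alone. None of the 4 notochord and trunk genes was measured, and hoxb8a and hoxc8a had no read in either library.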

How the data were processed

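Per the labels' protocols, libraries of head RNA came from a TruSeq kit and were sequenced as pairs of 100 bp on an Illumina instrument. The submitters' processing notes name HISAT2 2.0.1, HTSeq 0.6.1, DESeq2, cutadapt and bcl2fastq 2.17.1.14 as tools, and GRCz11 as build. The annotation release and strand setting were not given in the sources used here. The authors deposited raw counts for each feature, and RPKM. RPKM, count and library total imply a length shorter than the deposited gene span for 95.7% of annotated genes with at least 100 reads, so the deposited RPKM does not use the span. A second deposited table by the authors holds their own comparison: counts, FPKM, a wildtype over mutant ratio with its log2, and p-values, which set 1 library against 1 and are not printed.

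Counts were scaled to CPM by the sum of all features, and log2 ratios used a pseudocount of 1 CPM. This draws log2 ratios of low-level genes toward 0, so some genes within 2-fold by the rule have a larger plain ratio. Folds without a pseudocount have 95% Clopper-Pearson intervals; PCR reads are not independent molecules, so these may be too narrow. A count of 0 allows 3 counts. Copies named by family only were told apart by gene span (RefSeq, GRCz12tu), and its coordinates are not printed since the builds differ. The rules were checked on simulated counts that held no variation between samples and only effects larger than 2-fold. Recovery of differences near the threshold was not checked. Members and lists were chosen with earlier results of these data known. Of 168 list symbols 75 matched exactly, 36 ignoring case, 39 once a closing a or b was dropped, and 18 found no match. Named genes were all annexins, up to 4 per list with the largest absolute log2 ratio, the genes higher in the authors' table and rbm24a; others, such as krt4, s100a10b, fpr1 and neighbours, were chosen after their values were seen. Likeness between genes was not measured over 2 libraries. Levels per coding length, protein features and promoters were not analysed here. Computation used Python 3.11.15, pandas 2.3.3, scipy 1.17.1 and edgeR 4.0.16 (for TMM factors).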

Additional observations from a re-analysis of the deposited data

How the results depend on the processing

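No paired analysis was possible because there is 1 library per group, and none could be left out. Under all 8 alternatives anxa3a and anxa1a were the 2 annexins of the 12 past 2-fold, both higher, and 0 were lower. The log2 ratio of anxa3a ranged from 2.29 (pseudocount of 5 CPM) to 3.56 (pseudocount of 0.1 CPM), that of anxa1a from 1.19 to 1.25, and that of anxa4 from -0.58 to -0.53. Scaling by TMM or by median-of-ratios moved the median of all features to 0.00 and 0.03. Counts of all features did move: 672 higher and 830 lower with a pseudocount of 0.1, 97 and 164 with 5, 171 and 243 with the filter raised to 5 CPM, and 205 and 279 with deposited RPKM. With a pseudocount of 0.1 the genes higher numbered 1 among S100 proteins, 2 among formyl peptide receptors and phospholipases and 1 among C2-domain sensors. They numbered 1 among macrophage and neutrophil genes and 3 among skeletal muscle genes in that setting. With a pseudocount of 5 they numbered 0 for formyl peptide receptors and phospholipases, 1 for heart and 0 for skeletal muscle. For the formyl peptide receptor list the count was 2 with median-of-ratios scaling. Heart had 4 without a filter, 0 with the filter at 5 CPM and 1 with RPKM, and skeletal muscle 0 and 1 in the latter settings; S100 proteins had 1 with RPKM. With a pseudocount of 5 CPM, 5 of 6 lens fibre genes and 4 of 5 red cell genes were lower. Levels per coding length could not be run. Depth limits anxa6, anxa14, anxa5a and anxa2b (anxa6, the deepest of these, had 12 and 21 reads).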
